A study of Mus musculus with 2 samples.

Results

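Thyroid hormone acts in the brain through a short chain of proteins, and 8 genes of that chain were followed here in the frontal cortex of the mouse. They were the receptors Thra and Thrb, the transporter Slco1c1, the deiodinases Dio2 and Dio3, the cytosolic binding protein Crym, and the hormone-responsive genes Hr and Klf9. The genes were taken by name, as the rows of the gene and transcript quantifications whose identifiers carry these symbols in GENCODE M21, and all 8 were found among 43346 annotated genes. They have 25 annotated transcripts, of which 9 belong to Thra.

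The study has 1 group, frontal cortex (also labelled frontal lobe) from 8-week-old mice of the C57BL/6J strain in 2 biological replicates, with no treatment or mutation. The labels give the tissue as pooled from male and female littermates, and both libraries carry the same donor identifier. RNA longer than 200 nt was depleted of ribosomal RNA, selected for poly(A) and sequenced in stranded libraries as read pairs of 101 nt. As no condition is compared with another, the levels of the genes in this tissue, their transcripts and their spread between the replicates are given, with no p-value.

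The libraries held 106084891 expected counts in replicate 1 and 90476207 in replicate 2. An expected count is the number of read pairs assigned to a gene, shared out where a pair fits several. The labelled tissue was checked on 8 lists of cell type markers. Markers of excitatory neurons summed to 1182 and 1138 TPM in replicates 1 and 2, and those of astrocytes to 1091 and 1101 TPM. TPM is a length-adjusted share of all transcripts. Markers of inhibitory neurons summed to 598 and 760 TPM, and those of endothelium, where thyroid hormone transporters are known to be made, to 234 and 262 TPM. Among the inhibitory markers, Gad1 had 467.81 and 630.84 TPM from 79612 and 73517 counts. The length used to adjust Gad1 differed, at 2057 and 1554 nt. Gad2 had 48.46 and 43.30 TPM and Slc32a1 81.41 and 86.04 TPM. All genes of the 6 lists for neurons, glia and vessels reached 1 TPM in both libraries. Choroid plexus markers summed to 2.24 and 2.33 TPM, with none of the 4 at 1 TPM in both libraries, while the 3 markers of ependyma and tanycytes, the cells that line the ventricles, summed to 6.57 and 10.4 TPM. Of these, Foxj1 had 2.36 and 2.76 TPM, Rarres2 4.18 and 7.62 TPM, and Rax 0.03 TPM in each. The libraries differed in other ways. Microglial markers summed to 82.4 TPM in replicate 1 and 54.0 TPM in replicate 2, and oligodendrocyte markers to 819 and 945 TPM. The noncoding RNA Xist, which coats the inactive X, was counted 107 times in replicate 1 and 77696 times in replicate 2, while the Y-linked Ddx3y had 4584 and 1, which the labelled pooling of sexes does not describe. In bulk tissue, fewer cells of a type and less RNA per cell cannot be told apart.

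The thyroid gland secretes mainly the prohormone thyroxine (T4), which brain cells take up through transporters and convert to the active hormone triiodothyronine (T3). In the brain the type 2 deiodinase, made mostly by astrocytes and tanycytes, carries out that step, and the type 3 deiodinase inactivates both hormones, mostly in neurons. T3 binds nuclear receptors that sit on DNA with retinoid X receptors, where it exchanges corepressors for coactivators.

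All but 1 of the 8 genes reached 1 TPM in both libraries, where 60.7% of all protein-coding genes did. Thra stood far above the rest at 410 ± 43.3 TPM (SD, n = 2, as for all following means), rank 146 among 21474 protein-coding genes. Klf9 came next at 40.5 ± 1.15 TPM and then Crym at 31.2 ± 14.7, Slco1c1 at 26.1 ± 4.89 and Dio2 at 17.6 ± 0.742 TPM. At the low end were Hr at 9.19 ± 2.39, Thrb at 6.28 ± 0.820 and Dio3 at 1.085 ± 0.403 TPM. In that order, 4 of the 7 neighbouring pairs differed beyond the spread. This means here that the log2 ratio of TPM had the same sign in both libraries, that its mean exceeded its SD, and that the deposited TPM intervals of both genes were apart in each library. The place of Crym in that order was not settled by these libraries: Klf9 over Crym was -0.01 in replicate 1 and 0.93 in replicate 2 on the log2 scale, and Crym over Slco1c1 was 0.49 and -0.12. Hr and Thrb did not differ beyond the spread either, with log2 ratios of 0.13 and 0.93. Between 2 libraries an exact sign-flip test cannot go below p = 0.5, so these are descriptions.

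**Figure D1:**
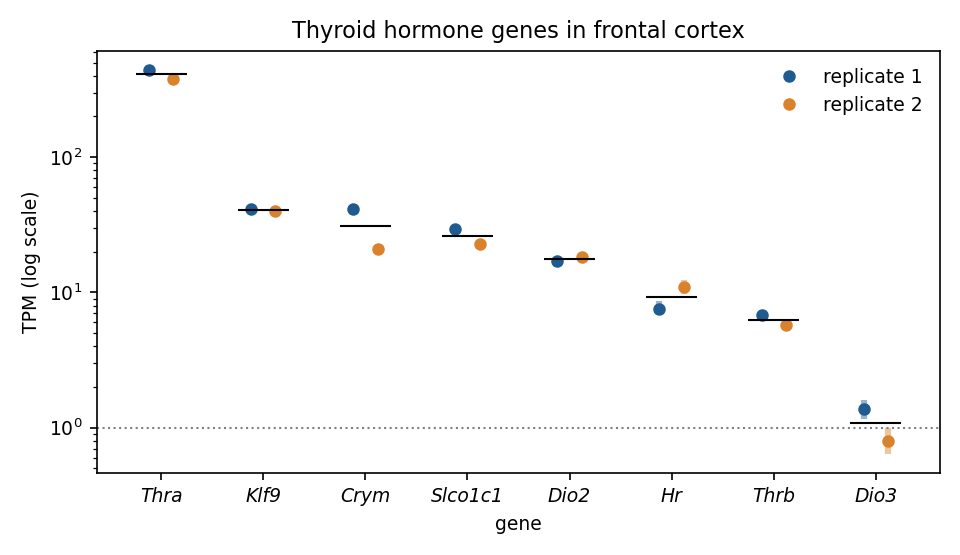
Deposited TPM (log axis) of the 8 genes, in order of their mean. Points are replicate 1 (left) and replicate 2 (right), vertical bars the deposited intervals, most of them smaller than the points, horizontal bars the mean of both, and the dotted line 1 TPM. Thra lies near 410 TPM, and Dio3 crosses 1 TPM between the replicates.

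Thra encodes thyroid hormone receptor alpha (ENSMUSG00000058756.9, mm10 chr11:98740638-98769006, plus strand). It had 440.74 TPM in replicate 1 and 379.45 TPM in replicate 2, from 72417 and 57130 counts, so it was high in both. Scaled by TMM factors (CPM on counts without spike-ins, prior count of 2), the log2 ratio of replicate 1 over replicate 2 was 0.06, with a counting interval of 0.05 to 0.08. Among the 47 nuclear receptor genes measured, a family chosen after its values were seen, Thra ranked 1. The next was Nr1d1 (Rev-erb alpha, a haem-binding repressor of the circadian clock) with 65.12 and 61.00 TPM.

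The gene makes receptors with different C-termini. The alpha1 form binds T3, whereas alpha2, which takes its end from a further exon, is known not to bind the hormone. The coding sequences are the same for 370 codons, up to base 98764405 of chromosome 11. From there the alpha1 transcript Thra-202 reads on within exon 9 to a stop after 410 codons in all, with 120 nt of coding sequence of its own. The alpha2 transcript Thra-201 skips 3751 nt and joins exon 10 (chr11:98768157-98769006), with 366 nt of its own coding sequence and 492 codons in all. A further transcript, Thra-203, joins the same exon 117 nt later, at base 98768274, and so leaves out 39 codons of the alpha2 end. A form with such a shortened end was described in rat as alpha3. The branch is shown because the level of the hormone-binding form turns on it. In each sequence (GENCODE M21 transcripts, plus strand) the last 30 shared bases are in lower case, and the 48 coding bases after the branch are in capitals.
Thra-202 (alpha1): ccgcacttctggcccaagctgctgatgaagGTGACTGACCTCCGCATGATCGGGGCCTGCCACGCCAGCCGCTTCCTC
Thra-201 (alpha2): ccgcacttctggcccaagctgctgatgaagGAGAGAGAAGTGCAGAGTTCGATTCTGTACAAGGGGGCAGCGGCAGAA
Thra-203 (alpha2, inner acceptor): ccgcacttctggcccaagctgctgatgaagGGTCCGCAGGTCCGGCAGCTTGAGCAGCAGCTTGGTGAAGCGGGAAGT

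**Figure D2:**
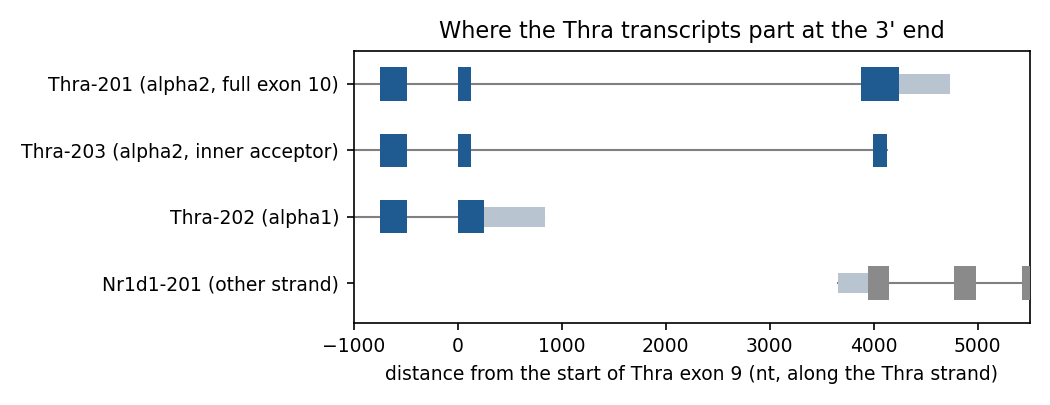
Thra transcripts at their 3′ end, with distance in nt from the start of exon 9 along the Thra strand. Tall boxes are coding sequence, low boxes noncoding exon and lines introns. The alpha1 stop lies in exon 9, both alpha2 forms end in exon 10, and the last exon of Nr1d1 on the other strand lies under the start of exon 10.

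Transcripts were put into classes from the annotation, by where the coding sequence ends. Those with the alpha2 end summed to 416.94 TPM in replicate 1 and 357.97 TPM in replicate 2, which was 94.5 ± 0.181% of the TPM of the gene. The alpha1 transcript had 17.02 and 14.69 TPM, or 3.87 ± 0.00699%. The alpha2 end therefore exceeded the alpha1 end in both libraries, 24.5-fold and 24.4-fold, a log2 ratio of 4.61 ± 0.01. Within the alpha2 class, Thra-201 had 334.76 and 298.79 TPM and Thra-203, with the inner acceptor, had 82.18 and 59.18 TPM. The inner acceptor was the lower in both libraries, by a log2 ratio to the full exon of -2.18 ± 0.22. It was also the less even between the libraries, with counts of 7019.18 and 4543.93 and a replicate log2 ratio of 0.35 (0.29 to 0.40). Thra-201 had 62160.2 and 50099.31 counts and a ratio of 0.03 (0.01 to 0.05). Both intervals leave out the error of sharing counts between transcripts. Its deposited posterior SD in replicates 1 and 2 was 166.72 and 144.09 counts for Thra-203 and 166.31 and 148.95 for Thra-201. The 5 noncoding transcripts of the gene summed to 6.72 and 6.78 TPM. The remaining coding transcript, Thra-208, had 0.07 TPM in replicate 1 and was listed at 0 in replicate 2.

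**Figure D3:**
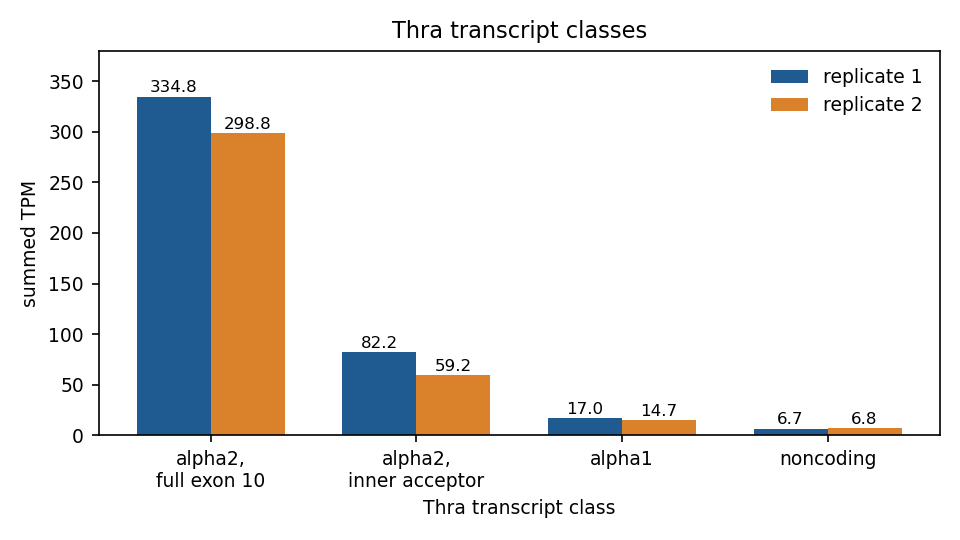
Summed TPM of the Thra transcript classes in replicate 1 (left bars) and replicate 2 (right bars), 1 value per library. The alpha2 end with the full exon 10 holds 334.8 and 298.8 TPM, and alpha1 holds 17.0 and 14.7 TPM.

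These shares rest on transcript models. Of the 850 bases of exon 10, 263 lie under exons of Nr1d1 on the other strand, all of them in the coding part, and 146 of them come after the inner acceptor. The libraries are stranded, but whether the counting used strand is not given in the sources used here. Thra had 72417 and 57130 counts and Nr1d1 13115 and 11209, each with a deposited posterior SD of 0. No read pairs were therefore shared out between these genes. The log2 ratio of alpha2 over alpha1 was 4.32 ± 0.03 with Thra-201 as the only alpha2 transcript. Thra-203 is also an incomplete model that ends inside the coding sequence, and being short it took 17.1% of the TPM of Thra but 8.82% of its counts. The alpha1 model carries 583 bases after its stop codon, so reads from any longer 3′ end were not counted for it.

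Thrb encodes thyroid hormone receptor beta, which also binds T3 (ENSMUSG00000021779.12, chr14:17660261-18038090, plus strand). It was low and even, with 6.86 TPM in replicate 1 and 5.70 TPM in replicate 2, from 3261 and 2455 counts and a replicate log2 ratio of 0.13 (0.05 to 0.21). As a gene, Thra exceeded it by a log2 ratio of 6.03 ± 0.04. Set against the hormone-binding alpha1 end alone, the gap was much smaller, with 17.02 and 14.69 TPM of alpha1 against the above values of Thrb, 2.48-fold and 2.58-fold. The receptors with a hormone-binding end, alpha1 and Thrb together, came to 23.88 and 20.39 TPM. The alpha2 end exceeded that sum 17.5-fold and 17.6-fold in replicates 1 and 2, a log2 ratio of 4.13 ± 0.01. The receptor proteins were not measured.

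Thrb has an upstream start, which gives the widely made beta1 form, and an internal start, which gives beta2, a form known from pituitary, hypothalamus, retina and inner ear. Transcripts from the upstream start, Thrb-203 and Thrb-201, code for 461 codons and summed to 6.72 TPM in replicate 1 and 5.48 TPM in replicate 2. Thrb-202, from the internal start, codes for 475 codons and had 0.14 and 0.22 TPM. Transcripts from the upstream start had more RNA in both libraries, by a log2 ratio of 5.11 ± 0.67. That SD leaves out the error of sharing counts. Thrb-202 had 66.58 and 95.02 counts with a posterior SD of 32.08 and 44.99. Its deposited intervals reached up to 0.293 and 0.457 TPM, while those of Thrb-203 began at 6.17 and 4.96 TPM. The Thrb-202 model also ends further on, at base 18038090 against 18033792 for Thrb-203, so its counts need not come from the internal start. The window from 250 bases before to 50 after each start (RefSeq, GRCm38.p6, plus strand) is shown because the transcripts annotated from these starts differ in level. The upstream window had 72.7% G and C and the internal one 46.0%.
Thrb upstream, chr14:17660710-17661009: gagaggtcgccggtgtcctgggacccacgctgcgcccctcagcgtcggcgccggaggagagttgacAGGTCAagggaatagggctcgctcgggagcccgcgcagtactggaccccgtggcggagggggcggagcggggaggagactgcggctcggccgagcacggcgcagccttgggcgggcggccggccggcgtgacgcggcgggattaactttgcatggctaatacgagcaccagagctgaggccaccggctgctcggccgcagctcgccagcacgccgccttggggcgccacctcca
Thrb internal, chr14:17981394-17981693: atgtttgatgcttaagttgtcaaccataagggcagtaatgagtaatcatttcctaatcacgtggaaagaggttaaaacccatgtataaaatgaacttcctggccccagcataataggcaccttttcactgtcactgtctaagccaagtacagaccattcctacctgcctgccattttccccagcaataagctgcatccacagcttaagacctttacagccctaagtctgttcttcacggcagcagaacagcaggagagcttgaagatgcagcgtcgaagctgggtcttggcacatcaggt
The capitals mark AGGTCA, the hexamer that thyroid hormone and other nuclear receptors recognise. Both strands were searched, and 16.3% of all 32851 windows of this kind hold it at least once. The paired element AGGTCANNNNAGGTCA was in 5 windows, 0.0152% of all, and in none of the 6 windows found for Thrb, Dio2, Dio3, Slco1c1 and Klf9.

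The partners of these receptors were all present. Of the 5 receptor genes, all reached 1 TPM in both libraries. Rxrb led the retinoid X receptors at 35.2 ± 4.48 TPM, Rxra had 7.27 ± 1.63 TPM and Rxrg, the lowest of the list, 6.11 ± 0.0990 TPM. Rxra over Rxrb was -2.29 ± 0.14 and Rxrb over Rxrg 2.52 ± 0.21 on the log2 scale, both beyond the spread. All 8 corepressor genes were at 1 TPM or more, led by the histone deacetylase Hdac3 at 76.9 ± 6.65 TPM and the receptor corepressor Ncor1 at 70.1 ± 9.67 TPM. Ncor1 had 76.94 TPM in replicate 1 and 63.26 TPM in replicate 2, and Hdac3 had 81.56 and 72.16 TPM. All 8 coactivator genes were present too, between 33.5 ± 4.73 TPM for the arginine methyltransferase Carm1 and 7.71 ± 0.191 TPM for the acetyltransferase Kat2b. Ncoa2 and Ncoa1, 2 of the p160 coactivators, had means of 21.2 and 20.5 TPM and did not differ beyond the spread. The median replicate log2 ratio was 0.10 for receptors, 0.05 for corepressors and 0.05 for coactivators, beside -0.00 for the 13247 protein-coding genes whose mean reached 1 TPM.

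Slco1c1 (ENSMUSG00000030235.13, chr6:141524368-141570177, plus strand) encodes OATP1C1, a high-affinity T4 transporter known in mouse from brain capillaries and astrocytes. It had 29.56 TPM in replicate 1 and 22.64 TPM in replicate 2, from 6717 and 4585 counts, and was the higher in replicate 1 by a log2 ratio of 0.27 (0.22 to 0.32). Its RNA was split between forms. The transcript that encodes the transporter of 715 codons had 16.29 and 10.76 TPM. The other, which carries an early stop after 469 codons and is annotated as a target of nonsense-mediated decay, had 13.26 and 11.88 TPM. The coding form was the higher in replicate 1 and the lower in replicate 2, and its replicate log2 ratio was 0.46 (0.39 to 0.54), against 0.03 (-0.06 to 0.11) for the other form. These intervals are too narrow, since they leave out the error of sharing counts between the forms. Its deposited posterior SD was 136.88 counts in replicate 1 and 109.34 in replicate 2 for each form. Deposited intervals of the forms were apart in replicate 1, at 15.1 to 17.4 and 11.8 to 14.5 TPM, and overlapped in replicate 2, at 9.71 to 11.8 and 10.4 to 12.9 TPM. The form annotated for decay took 48.7 ± 5.36% of the TPM of the gene. Among 1766 protein-coding genes with such a transcript at a mean level of at least 10 TPM, the median share was 3.80% and 73 genes, 4.13%, reached this share.

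The other transporters of thyroid hormone form a list of 9 genes with Slco1c1, of which 7 reached 1 TPM in both libraries. Slc16a10, which encodes the monocarboxylate carrier MCT10, had 0.92 TPM in replicate 1 and 0.94 TPM in replicate 2 and was low in both. Slc3a2, the shared heavy chain of amino acid carriers that also move the hormone, was the most abundant gene of the list. It had 58.6 ± 2.58 TPM, and its light chains Slc7a5 and Slc7a8 had 33.7 ± 1.11 and 20.5 ± 1.34 TPM. Slc7a5 over Slc7a8 was 0.72 ± 0.14 on the log2 scale, beyond the spread. Slco1a4, an organic anion transporter of the vessel wall, had 28.0 ± 6.58 TPM. The liver bile acid carrier Slc10a1 was listed at 0 in both libraries.

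Dio2 (ENSMUSG00000007682.5, chr12:90724552-90738438, minus strand), which makes T3 from T4, had 17.12 TPM in replicate 1 and 18.17 TPM in replicate 2. The counts were 7938 and 7628, and the log2 ratio was -0.22 (-0.27 to -0.18), slightly lower in replicate 1. Its 1 annotated transcript overlaps a noncoding gene of the other strand, Gm26512, over 100 exon bases, which had 0.5 and 0.45 TPM. Dio3 (ENSMUSG00000075707.5, chr12:110279068-110281097, plus strand), which inactivates the hormone, had 1.37 and 0.80 TPM, with deposited intervals of 1.15 to 1.59 and 0.643 to 0.993 TPM, so it was above 1 TPM in replicate 1 alone. It came from 180 and 99 counts, the fewest of the 8 genes, and its log2 ratio of 0.57 had the widest counting interval, 0.22 to 0.95. Its annotated transcripts, with 304 and 131 codons, had 0.82 and 0.54 TPM in replicate 1 and 0.58 and 0.22 TPM in replicate 2, in that order. The shorter model lies wholly within the longer, so this split is poorly resolved. For the shorter, the counts were 55.94 and 20.76 with a posterior SD of 14.34 and 10.25. Its deposited interval in replicate 2 ran from 2.7e-05 to 0.457 TPM. Dio2 exceeded Dio3 by a log2 ratio of 3.64 in replicate 1 and 4.51 in replicate 2, 4.07 ± 0.61 in the mean. Dio1, the deiodinase of liver and kidney, had no count in either library. Its deposited intervals reached up to 0.470 and 0.539 TPM, below those of Dio2 in both libraries, at 16.6 to 17.4 and 17.6 to 18.4 TPM.

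Deiodinases are selenoproteins: a TGA codon, elsewhere a stop, is read as selenocysteine in their active centre. The codon is shown with 30 bases on each side, as GENCODE M21 annotates it, because the activation and inactivation enzymes share it. It is codon 130 of 266 in Dio2 (chr12:90729823-90729825, minus strand) and codon 170 of 304 in the longer transcript of Dio3 (chr12:110279739-110279741, plus strand), in capitals below.
Dio2: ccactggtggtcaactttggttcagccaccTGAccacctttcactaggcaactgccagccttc
Dio3: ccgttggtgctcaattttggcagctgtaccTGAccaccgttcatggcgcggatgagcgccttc
The windows share 41 of 63 bases, 65.1%. Dio2 has a second annotated selenocysteine codon, number 263, close to its end. In the shorter Dio3 transcript the annotated coding sequence begins at base 110279751, after the codon shown, and so leaves it out. All 6 genes listed for selenocysteine synthesis and insertion were at 1 TPM or more in both libraries. Pstk, the kinase that phosphorylates the seryl transfer RNA, was at 19.1 ± 1.74 TPM, and Sephs2, which makes the selenium donor, at 15.8 ± 3.90 TPM. Secisbp2, which binds the selenocysteine insertion element, had 12.1 ± 0.672 TPM, and Sepsecs, the synthase, was the lowest at 5.93 ± 0.622 TPM. Dio2 protein is short-lived through ubiquitination. Wsb1, an adaptor of its ubiquitin ligase, had 148 ± 20.4 TPM, and the deubiquitinases Usp33 and Usp20 had 40.0 ± 2.55 and 23.1 ± 2.47 TPM.

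Dio2 is known to respond to cyclic AMP. Its start window (RefSeq, GRCm38.p6, minus strand) holds the cyclic AMP response element TGACGTCA, in capitals, beginning 95 bases before the RefSeq start. This window lies wholly upstream of the transcript quantified here, whose 5′ end is annotated at base 90738438. Of the 32851 windows, 1.79% hold this octamer, searched on both strands, and the windows of Dio3, Slco1c1, Klf9 and Thrb do not.
Dio2 start, chr12:90738989-90739288: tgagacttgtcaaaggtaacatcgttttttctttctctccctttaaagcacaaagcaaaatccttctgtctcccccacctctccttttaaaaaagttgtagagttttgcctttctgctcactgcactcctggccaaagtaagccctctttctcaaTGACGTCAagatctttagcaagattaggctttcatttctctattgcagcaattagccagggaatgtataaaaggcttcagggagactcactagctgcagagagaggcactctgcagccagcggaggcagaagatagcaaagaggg

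Crym encodes mu-crystallin, a ketimine reductase that holds T3 in the cytosol (ENSMUSG00000030905.5, chr7:120186380-120202111, minus strand). It had 41.58 TPM in replicate 1 and 20.86 TPM in replicate 2, from 4123 and 1861 counts, with deposited intervals of 40.0 to 42.5 and 19.8 to 21.6 TPM. It was the gene of the 8 that differed most between the replicates, higher in replicate 1 by a log2 ratio of 0.87 (0.79 to 0.95). Of the 13247 protein-coding genes whose mean reached 1 TPM, 119 (0.898%) had a larger ratio in size. The coding transcript Crym-201 held 98.2% of its TPM in each library. The level of Crym was below that of Thra in both, by a log2 ratio of -3.41 in replicate 1 and -4.19 in replicate 2. The carriers of the blood stream were low: transthyretin (Ttr) had 0.93 and 0.85 TPM, albumin (Alb) 0.05 and 1.11 TPM from 7 and 152 counts, and the thyroxine-binding globulin Serpina7 was listed at 0 in both.

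Hr encodes hairless, a corepressor that binds thyroid hormone receptors and is itself induced by T3 in rodent brain (ENSMUSG00000022096.10, chr14:70552212-70573548, plus strand). It had 7.50 TPM in replicate 1 and 10.88 TPM in replicate 2, from 2573 and 3134 counts, with deposited intervals of 6.80 to 8.57 and 9.80 to 12.4 TPM. It was the lower in replicate 1, by a log2 ratio of -0.56 (-0.64 to -0.49). The main coding transcript Hr-201, with 1182 codons, had 5.38 and 7.56 TPM and a log2 ratio of -0.63 (-0.71 to -0.55). That interval leaves out the error of sharing counts between transcripts, with a posterior SD of 71.67 and 51.02 counts. Hr-201 held 91.3% and 95.3% of the counts of the gene but 71.6% and 69.4% of its TPM. The rest of the TPM lay mainly in Hr-202, a noncoding model of 321 nt with 15.46 and 21.16 counts, which its short length turned into 1.64 and 2.69 TPM.

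Klf9 encodes a zinc finger transcription factor induced by T3 and by glucocorticoids (ENSMUSG00000033863.1, chr19:23141226-23168134, plus strand). It had 41.33 TPM in replicate 1 and 39.71 TPM in replicate 2, from 10448 and 9073 counts, with a log2 ratio of -0.08 (-0.12 to -0.04). It was even between the libraries and led the 17 Klf genes measured, a family chosen after its values were seen. Klf13 followed at 29.8 ± 0.0141 TPM and Klf16 at 20.0 ± 0.580 TPM. Klf9 exceeded Hr in both libraries, by a log2 ratio of 2.46 in replicate 1 and 1.87 in replicate 2.

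Set side by side, 3 of the 8 genes lay past a replicate log2 ratio of 0.5 in size, Crym and Dio3 on the side of replicate 1 and Hr on the side of replicate 2. Of the 13247 protein-coding genes whose mean reached 1 TPM, 3.19% did so, 1.46% above 0.5 and 1.74% below -0.5. The central 95% of these genes ran from -0.43 to 0.40, and the other 5 of the 8, Thra, Thrb, Dio2, Slco1c1 and Klf9, lay within that range. With deposited TPM plus a pseudocount of 1 in place of TMM-scaled counts, only Crym passed 0.5. These ratios have 1 library on each side and no replicate check, and their intervals cover counting error only. The median ratios of the marker lists moved as well, by -0.67 for ependyma and tanycytes (over the 2 of 3 genes whose mean reached 1 TPM), 0.50 for microglia and -0.43 for oligodendrocytes. They were -0.17 for inhibitory neurons, -0.10 for astrocytes, -0.06 for excitatory neurons and -0.03 for endothelium, and no choroid plexus marker reached a mean of 1 TPM. The part of cell content, or of the differing Xist and Y-linked RNA, in the ratios of Crym, Dio3 and Hr was not tested.

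**Figure D4:**
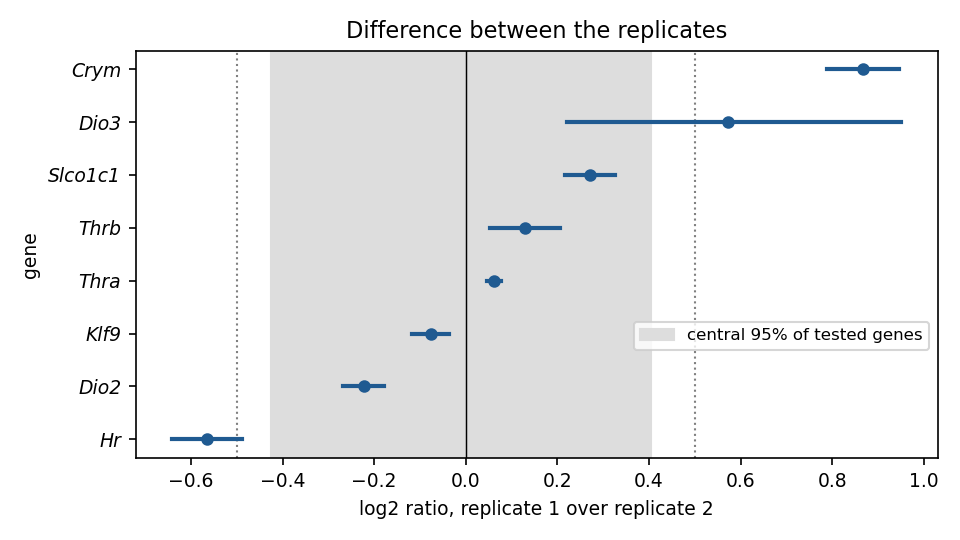
Log2 ratio of replicate 1 over replicate 2 (TMM-scaled counts, prior count of 2) of each gene, with 95% counting intervals as horizontal bars. The grey band is the central 95% of 13247 protein-coding genes and the dotted lines are the threshold of 0.5. The points of Crym and Dio3 lie right of the band, the interval of Dio3 reaching into it, and Hr lies left of it.

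Hr and Klf9 belong to a list of 9 genes known to respond to T3 in rodent brain, and all 9 were at 1 TPM or more in both libraries. All 9 had less RNA in replicate 1, by ratios of -0.60 to -0.08 on the log2 scale and a median of -0.39. The median of all 13247 tested genes was -0.00, and the list was chosen with earlier results of these data known. Klf9, which was nearest to 0, turned to 0.06 with deposited TPM plus a pseudocount of 1, a scaling that moves the median of all tested genes by 0.12. All 9 lay below the median of all tested genes under TMM and with deposited TPM plus a pseudocount of 1. DESeq2 size factors, library size and the spike-in total shift all genes almost alike. They therefore could not move the 9 across that median and are no further check. Past -0.5 lay 3 of them, Hr, the striatal GTPase gene Rasd2 at -0.60 (-0.66 to -0.54) and the synaptic calmodulin-binding protein gene Nrgn at -0.54 (-0.55 to -0.52), where 1.74% of all tested genes lay. With library size in place of TMM 2 of the 9 lay past -0.5, and with deposited TPM plus a pseudocount of 1 there was 1. Nrgn had 630.77 TPM in replicate 1 and 941.08 TPM in replicate 2, and Rasd2 20.44 and 28.21 TPM. The list also holds the myelin gene Mbp, with 982.88 TPM in replicate 1 and 1275.23 TPM in replicate 2 and a log2 ratio of -0.47. All 4 oligodendrocyte markers, 1 of which is also in the list, were lower in replicate 1, with a median of -0.43, and the part of myelin content in the ratio of the list was not tested.

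The pathway lists together hold 62 genes, all found in the quantifications, and 50 reached 1 TPM in both libraries, where 60.7% of all protein-coding genes did. Of the 51 whose mean reached 1 TPM, 2 lay above 0.5 and 3 below -0.5 in the replicate log2 ratio, all of them named above, beside 1.46% and 1.74% of all tested genes, and the median was 0.01. Genes listed for the thyroid gland and its control axis were mostly low, with 3 of 8 at 1 TPM or more in both libraries. Trh, the releasing hormone precursor, had 27.9 ± 0.346 TPM and Slc5a5, the iodide symporter, 5.62 ± 1.04 TPM. Thrsp, a regulator of lipid synthesis that belongs to neither gland nor axis, had 19.8 ± 2.87 TPM. The lowest was Tshb, the beta chain of thyrotropin, with 3 counts in replicate 1 and none in replicate 2.

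**Figure D5:**
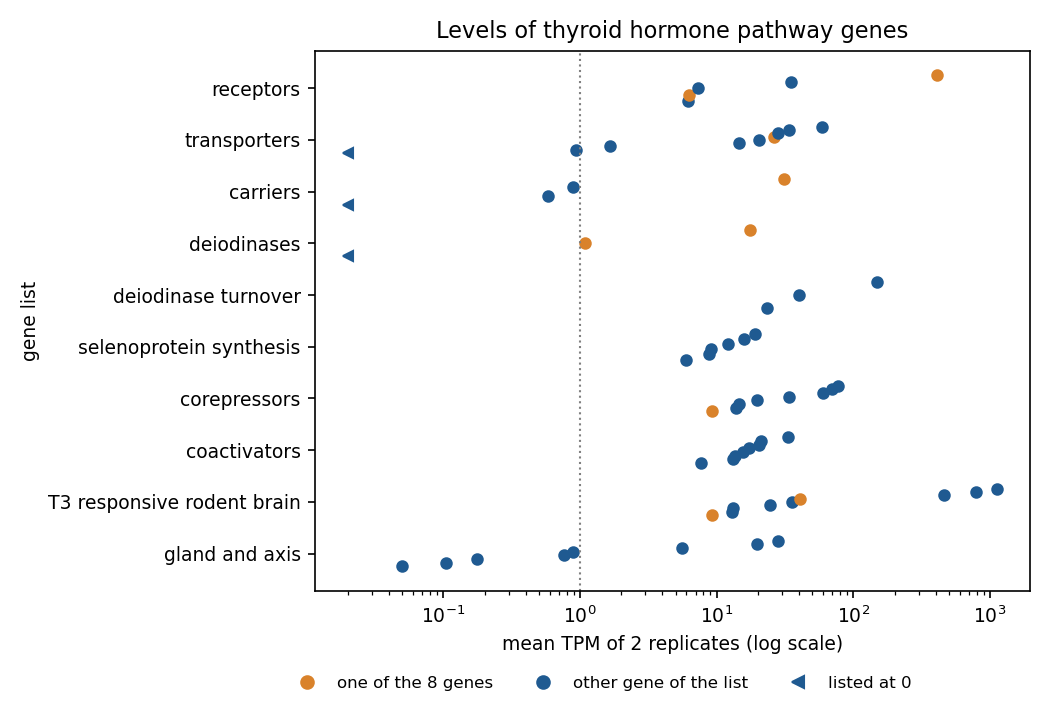
Mean TPM of both replicates (log axis) for each gene of the 10 pathway lists, 1 point per gene, spread vertically within its list, with the dotted line at 1 TPM. Triangles mark genes listed at 0, placed at the left edge. Hr stands in 2 lists. Receptors, corepressors and coactivators lie above 1 TPM throughout, whereas carriers, deiodinases and gland genes reach from below 1 TPM upward.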

How the data were processed

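Each library came as a deposited gene table and a transcript table, made on mm10 with annotation M4 according to the deposited text. The sources used here do not name the aligner or counting program. The deposited values used were expected counts, TPM over all entries including spike-ins, FPKM, and the percent of a gene's TPM in each transcript. The deposited TPM intervals (bounds of the signal in each library) were used as given, and the files do not state their level. Symbols, biotypes and coordinates came from GENCODE M21, and start windows from RefSeq.

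Levels were compared on TPM. Replicate ratios used rounded expected counts without spike-ins, TMM factors (1.02 and 0.982, edgeR 4.0.16 in R 4.3.3) and a prior count of 2, with exact conditional binomial 95% intervals (scipy 1.17.1). The deposited posterior SD of the counts was 0 for all 8 genes in both libraries. For transcripts that share reads, such as those of Thra, Thrb, Dio3, Slco1c1 and Hr, it was not 0, and the intervals leave it out. Intervals cover counting error only, since read pairs that lack molecular identifiers can be PCR copies. Over 20312 genes the replicates differed beyond sampling noise (chi-square per degree of freedom 52.7). With 2 libraries, SDs have 1 degree of freedom. The ratio step was run on simulated counts with 200 changed genes, which tested the recovered ratios but not the intervals.

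Named were the 8 genes, the 3 most abundant and the lowest member of each pathway list, list members past 0.5, the genes of 13 pairs and overlapping genes. Some of these genes are not reported here but stay in the counts and medians. The families, Ddx3y and Xist were picked with their values known. The 8 genes and the lists were chosen with earlier results of these data known. With 2 libraries no gene was sought for a similar pattern. Alternatives covered DESeq2 1.42.0 size factors, other totals, thresholds and quantities.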

Additional observations from a re-analysis of the deposited data

How the results depend on the processing

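No paired analysis was possible because the series has 1 group, whose replicate numbers match no other group. The median level of the 8 genes, 21.4 TPM, was 43.4 when TPM was rescaled to nuclear protein-coding genes and 17.2 in FPKM, both by construction, and 19.5 to 23.3 with either library left out. The count at 1 TPM or more was 7, and 7 to 8 with either library left out. Pairs beyond the spread numbered 11 of 13, and 11 to 13 with either library left out. Without division by length, Slco1c1 over Dio2 turned to -0.49 on the log2 scale. The genes past a replicate ratio of 0.5 numbered 3 under TMM, DESeq2 size factors, library size and the spike-in total. With deposited TPM and a pseudocount of 1 there were 1, with Dio3 at 0.40 and Hr at -0.48, where 2.63% of all tested genes passed. Over all 18215 protein-coding genes with any count, 17.1% passed. The log2 ratio of the Thra alpha2 over the alpha1 end was 4.60 in counts, 4.61 in either library alone, and 4.32 without the inner-acceptor transcript, an alternative chosen after seeing the data. The leading transcript held a median of 85.9% of a gene's TPM and 94.1% of its counts. The precision of Dio3, with 99 counts in replicate 2, is limited by depth.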
